A study of Mus musculus with 12 samples.

Results

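The Usp17l genes are a small cluster of mouse deubiquitinase genes, and 5 genes were taken here by a single rule: every symbol that starts with Usp17l in the 2 deposited expression tables. These 5 genes (Usp17la, Usp17lb, Usp17lc, Usp17ld and Usp17le) were listed in both tables, out of 17866 genes in the table of the knockdown experiment and 19390 in the table of the immunoprecipitation experiment. The rule used symbols and no measured value. All samples were 2-cell mouse embryos, the stage at which the embryo starts to transcribe its own genome.

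In the knockdown experiment, control embryos (genotype label WT) and knockdown embryos (genotype label Eif1ad3_KD) were compared, with 2 libraries each, A and B. The design text describes 1-cell CF1 embryos that received mRNA of RfxCas13d, an enzyme that cuts RNA at sites chosen by a guide RNA, alone for the controls and with guides for the knockdown. The protocol given with the samples instead names morpholino oligos and Cas13d protein, injected into oocytes. In the immunoprecipitation experiment, zygotes were injected with synthetic mRNA (200 ng/uL) that encodes Eif1ad3 with a His tag (genotype label Eif1ad3_OE), and lysates of 200 cells per replicate met beads with an anti-His antibody or with IgG, the negative control, with 2 libraries each. The tagged protein was therefore made from injected mRNA in addition to the embryo's own. The IgG libraries carry the same genotype label as the His libraries. Each library pools embryos, and no label says whether replicates came from separate collections, so p-values measure only the spread between these samples, which may be technical.

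Ubiquitin-specific proteases remove ubiquitin, a small protein tag, from other proteins, and so can spare them from destruction by the proteasome or change their activity. The mouse Usp17l genes, first named DUB genes, were known early on as genes switched on within a short time by interleukins in blood cell lines. They are near copies of each other that lie among olfactory receptor genes, and they also belong to the genes transcribed at the 2-cell stage and in embryonic stem cells that pass through a 2-cell-like state. RefSeq lists Dub1 as a synonym of Usp17la, Dub1a of Usp17lb, Dub2 of Usp17lc, Dub2a of Usp17ld and Dub3 of Usp17le. In its GRCm38.p6 gene order, on chromosome 7, Usp17le, Usp17lb and Usp17la follow each other with no other protein-coding gene between them. Usp17ld and Usp17lc lie apart from these 3, each between olfactory receptor genes, with 7 protein-coding genes between them.

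RefSeq promoter windows were found for 4 of the 5 genes. They are shown because the copies are so alike that reads could be divided among them in ways the sources do not state, and because the region in front of the genes is part of what they share. Each line runs 5′ to 3′ on the gene's own strand and ends in front of the annotated start of the gene, with 3 elements in capitals: a CACCC-type box (CCACACCC), the reverse of a CCAAT box (ATTGG, found 2 times in Usp17lc) and an A/T-rich box.
Usp17la: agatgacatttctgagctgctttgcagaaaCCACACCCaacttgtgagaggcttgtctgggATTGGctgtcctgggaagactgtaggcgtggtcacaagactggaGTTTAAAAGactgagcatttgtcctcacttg
Usp17lb: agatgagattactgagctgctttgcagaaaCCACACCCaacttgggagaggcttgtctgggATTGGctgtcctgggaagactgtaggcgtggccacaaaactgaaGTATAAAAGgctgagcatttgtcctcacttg
Usp17lc: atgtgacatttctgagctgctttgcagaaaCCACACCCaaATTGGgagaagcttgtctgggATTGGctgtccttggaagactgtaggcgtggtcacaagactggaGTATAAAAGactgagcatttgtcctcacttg
Usp17ld: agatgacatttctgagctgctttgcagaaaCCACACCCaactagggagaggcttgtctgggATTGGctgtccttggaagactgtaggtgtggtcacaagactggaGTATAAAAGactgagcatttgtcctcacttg

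In GRCm38.p6 these stretches are chr7:104856864-104856999 on the plus strand for Usp17la, chr7:104842585-104842720 on the minus strand for Usp17lb, chr7:103416502-103416637 on the plus strand for Usp17lc and chr7:103252586-103252721 on the minus strand for Usp17ld. Over the 136 aligned bases no gap was needed. Usp17la and Usp17ld differed at 5 positions (96.3% identity), and Usp17lb and Usp17lc, the least alike pair, at 11 (91.9%). The A/T-rich box read GTATAAAAG in Usp17lb, Usp17lc and Usp17ld and GTTTAAAAG in Usp17la. The letters TATAAAA, searched on both strands of the full 300-base windows, were thus present in 3 of the 4 genes and in 5.48% of the 32851 promoter windows of that length. The letters CCACACCC were present in 4 of 4 and in 3.56% of all windows, and CCAAT in 4 of 4 and in 37.4%. TAATCC, bound by Obox-type homeodomain proteins, was in none of the 4 windows and in 7.06% of all windows. These matches describe letters and show no binding.

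Library totals recovered from the values were 18173916 to 27902514 reads in the knockdown experiment, 7917501 and 8364126 in the His libraries and 4678563 and 5925209 in the IgG libraries. In the knockdown experiment 7 of 7 markers of the 2-cell stage were at 1 CPM (a gene's reads scaled by the library total, the deposited unit) or more in all 4 libraries. Their summed level was 3877 to 3985 CPM in controls and 2655 to 2980 CPM in knockdown embryos. These markers include Eif1ad8, a relative of the targeted gene, at 578 and 461 CPM in controls A and B. In knockdown A and B Eif1ad8 was at 230 and 120 CPM. Markers of other cells were low there: the cumulus and granulosa cell list (5 of 10 genes listed) summed to 18.1 to 34.1 CPM and the later embryo list (7 of 8 listed) to 39.3 to 73.4 CPM. Eif1ad3, the targeted gene, was at 839 and 663 CPM in controls A and B and at 277 and 377 CPM in knockdown A and B. In bulk RNA from pooled embryos, fewer cells with a transcript and less transcript per cell cannot be told apart.

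The family's reads came mostly from Usp17lb, the copy that RefSeq also lists as Dub1a. In controls A and B it held 92.6% and 91.8% of all Usp17l reads, and in knockdown A and B 77.6% and 85.6%. Usp17lc held 3.07% to 8.67% of the family's reads in these 4 libraries, Usp17ld 2.56% to 7.25%, Usp17la 0.589% to 6.58% and Usp17le 0.123% to 2.43%. These are shares of reads, not corrected for transcript length, so they give no order of transcript levels between the copies. In the His libraries the division was another one: Usp17lb held 21.7% and 50.6% in A and B, Usp17la 40.8% and 29.1%, and Usp17le 16.4% and 8.12%. The shares in the 2 experiments were not tested against each other, since their tables were normalized separately and share no samples.

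**Figure D1:**
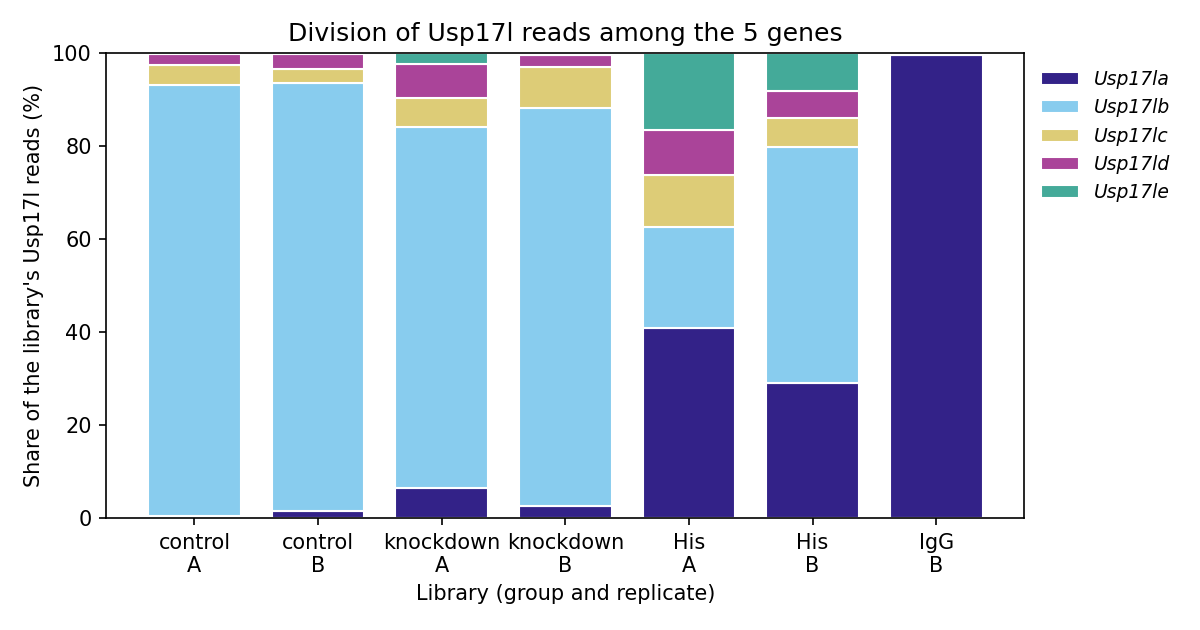
Share of each library's Usp17l reads (%) held by each of the 5 genes, stacked from 0 to 100 for control, knockdown, His and IgG replicates; IgG replicate A, with 4 Usp17l reads in all, is left out. Usp17lb fills 92.6% and 91.8% of the control bars and less of each other bar, and Usp17la fills nearly the whole bar of IgG replicate B.

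Knockdown and control embryos were compared first, to ask whether the family's transcripts differ when Eif1ad3 and its variants are targeted. The tests ran on log2(CPM + 1) with limma over 13332 genes, of which 0 (0%) passed at an adjusted p under 0.05, while 726 had an unadjusted p under 0.05. edgeR on the recovered reads called 0 and DESeq2 15 (0.113%), with 0.105% of genes higher and 0.0075% lower in knockdown embryos. All 5 Usp17l genes entered this fit and none passed with any of the 3 tools.

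Usp17lb stood at 1841 and 1196 CPM in controls A and B, from 46045 and 29778 reads. Its level in knockdown A and B was 719 and 554 CPM, from 20062 and 10069 reads. Both knockdown libraries lay below both controls, an arrangement found in that direction for 18.4% of all genes tested. The control mean was 1519 ± 456 CPM and the knockdown mean 637 ± 117 CPM (SD, n = 2 per group), which is 41.9% of the former, and the ratios of single libraries ran from 0.301 to 0.601. The log2 difference was -1.23 with a standard error (SE) of 0.34, close to the -1.21 of Eif1ad3 itself. The difference of Eif1ad3 (SE 0.33) did not pass, at an adjusted p of 0.859 in limma. For Usp17lb the unadjusted p in limma was 0.00679 and the adjusted p over all genes 0.859, so the difference of Usp17lb did not pass. It did pass when only 1 knockdown library was kept and assumed to vary as the controls did: the adjusted p in limma was 0.000847 without knockdown A, a fit that called 15.1% of all genes, and 0.0133 without knockdown B, which called 3.23%. Without control A or control B it did not pass (adjusted p 1.00 in limma in each case), in fits that called 0 genes, with 125 and 163 at an unadjusted p under 0.05.

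Usp17la and Usp17le, which flank Usp17lb in the cluster, showed another arrangement, with knockdown A apart from the other 3 libraries. Usp17la was at 11.7 and 21.0 CPM in controls A and B, at 61.0 CPM in knockdown A and at 17.3 CPM in knockdown B. The knockdown libraries of Usp17la thus lay above and within the range of the controls. Usp17le was at 2.44 and 3.25 CPM in controls (61 and 81 reads), at 22.5 CPM in knockdown A (628 reads) and at 3.30 CPM in knockdown B (60 reads). Knockdown B was nearly level with the higher control, and by that small margin Usp17le counts among the 18.1% of genes with both knockdown libraries above both controls.

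The log2 differences of these 2 genes were 1.01 (SE 0.64) for Usp17la and 1.39 (SE 0.81) for Usp17le, each with an adjusted p of 0.859 in limma. Without knockdown B both passed in limma, at 1.89 (adjusted p 0.0231) and 2.62 (0.0207). Without knockdown A the differences were 0.13 and 0.17, with adjusted p of 0.883 each. The gap between the knockdown replicates of Usp17le was wider than that of 97.7% of the genes tested, and that of Usp17la wider than 90.7%. Over the 4 libraries of the knockdown experiment the log2 levels of the 2 genes had a Pearson correlation of 0.97 with each other, given as a description.

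Oocyte transcripts also stood high in knockdown A. The 10 genes of the oocyte list, stored by the egg as maternal RNA, were all detected in each library, and their summed level was 4339 and 3687 CPM in controls A and B, 9134 CPM in knockdown A and 3928 CPM in knockdown B. Among them H1f8, the oocyte linker histone, was at 176 and 195 CPM in controls, 1299 CPM in knockdown A and 53.8 CPM in knockdown B. The list was not uniform in knockdown B: Oosp1 and Bmp15, both made by oocytes, lay above both controls there, Oosp1 at 2475 CPM against 2303 and 1898 CPM and Bmp15 at 1055 CPM against 845 and 728 CPM. The median of the list lay 1.35 log2 units above the control mean in knockdown A and at -1.20 in knockdown B, while the median of all genes tested lay at 0.14 and -0.17. Usp17ld, at 0.53 in knockdown A and -1.43 in knockdown B on the same scale, had the signs of the oocyte medians in both libraries, while Usp17la and Usp17le stayed above the control mean in knockdown B (0.13 and 0.17). The part of the oocyte transcripts in the values of these 3 genes was not tested.

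Usp17ld and Usp17lc, the 2 copies outside the cluster of 3, differed from each other in how far their replicates lay apart. Usp17ld was at 50.9 and 42.0 CPM in controls A and B, at 67.2 CPM in knockdown A and at 16.6 CPM in knockdown B. The knockdown libraries of Usp17ld lay on opposite sides of the controls, with a log2 difference of -0.45 (SE 0.62, adjusted p 0.947 in limma). That difference was -1.43 without knockdown A (adjusted p 0.0150 in limma) and 0.53 without knockdown B (0.427). Usp17lc was at 82.1 and 40.0 CPM in controls A and B and at 57.2 and 56.1 CPM in knockdown A and B. Both knockdown libraries of Usp17lc lay between the controls, with a log2 difference of -0.02 (SE 0.44, adjusted p 0.998 in limma), which was 0.49 without control A and -0.53 without control B.

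**Figure D2:**
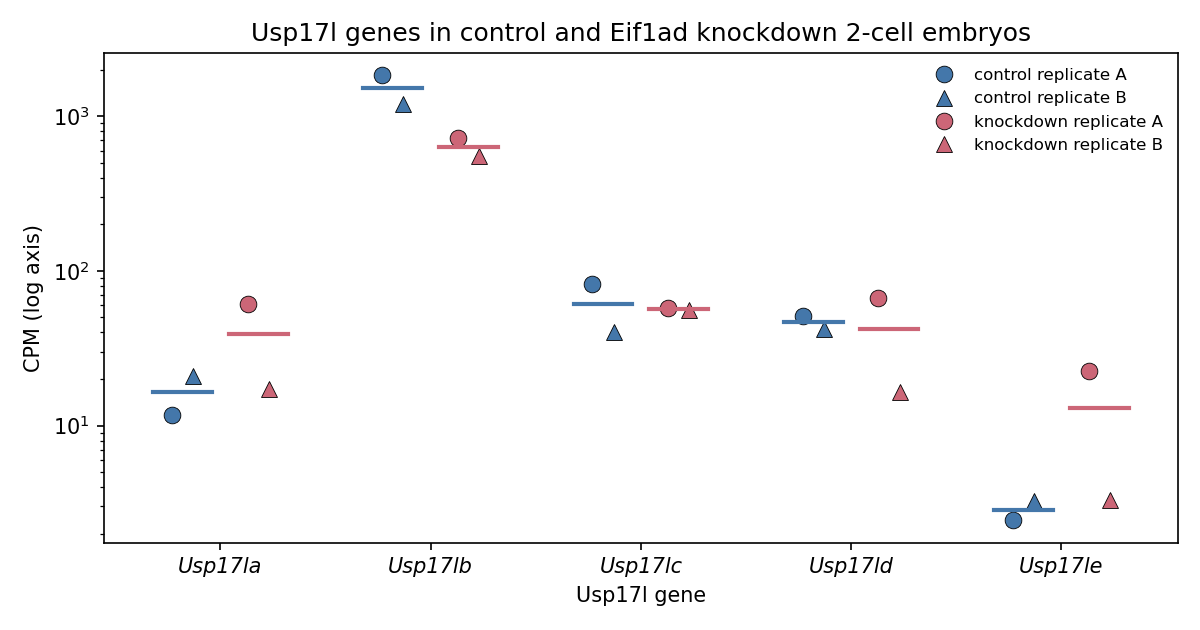
CPM on a log axis of the 5 Usp17l genes in control (blue) and knockdown (red) libraries of 2-cell embryos, replicate A as circles and B as triangles, with the group mean as a bar. Usp17lb has both knockdown points (719 and 554 CPM) below both control points; for Usp17la, Usp17ld and Usp17le knockdown replicate A lies well above replicate B.

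Summed over the 5 genes, the family was at 1988 and 1302 CPM in controls A and B and at 927 and 647 CPM in knockdown A and B. Both knockdown sums lay below both control sums, at 47.8% of the control mean (1645 ± 485 and 787 ± 198 CPM, SD, n = 2 each). The difference of the sum, on log2(CPM) with no pseudocount, was -1.05 (two-sided exact permutation test over the samples, p = 0.333, the smallest p that 2 against 2 allows). Usp17lb, which held most of the family's reads, set this value. Without Usp17lb the sum differed by 0.15, given as a description only.

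The other 2-cell genes give the setting for these values. Of 24 genes of a 2-cell list tested, which includes Eif1ad2 and Eif1ad8, relatives of the targeted gene, none passed, 21 were lower in knockdown embryos, and the median log2 difference was -0.39 against 0.02 for all genes. In 12 of the 24 both knockdown libraries lay below both controls, and in 1 above, against 18.4% and 18.1% of all genes tested. Obox6, a homeobox gene of the early embryo, was at 2121 and 2144 CPM in controls A and B and at 1320 and 1226 CPM in knockdown A and B (log2 difference -0.74, SE 0.29, adjusted p 0.859 in limma). Zfp352, a zinc finger gene of the 2-cell stage, was at 811 and 871 CPM in controls and at 735 and 827 CPM in knockdown A and B. The medians of this list in knockdown A and B were -0.40 and -0.37 from the control mean on the log2 scale, while single genes differed more between the replicates, such as Obox3 at 902 and 1236 CPM.

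**Figure D3:**
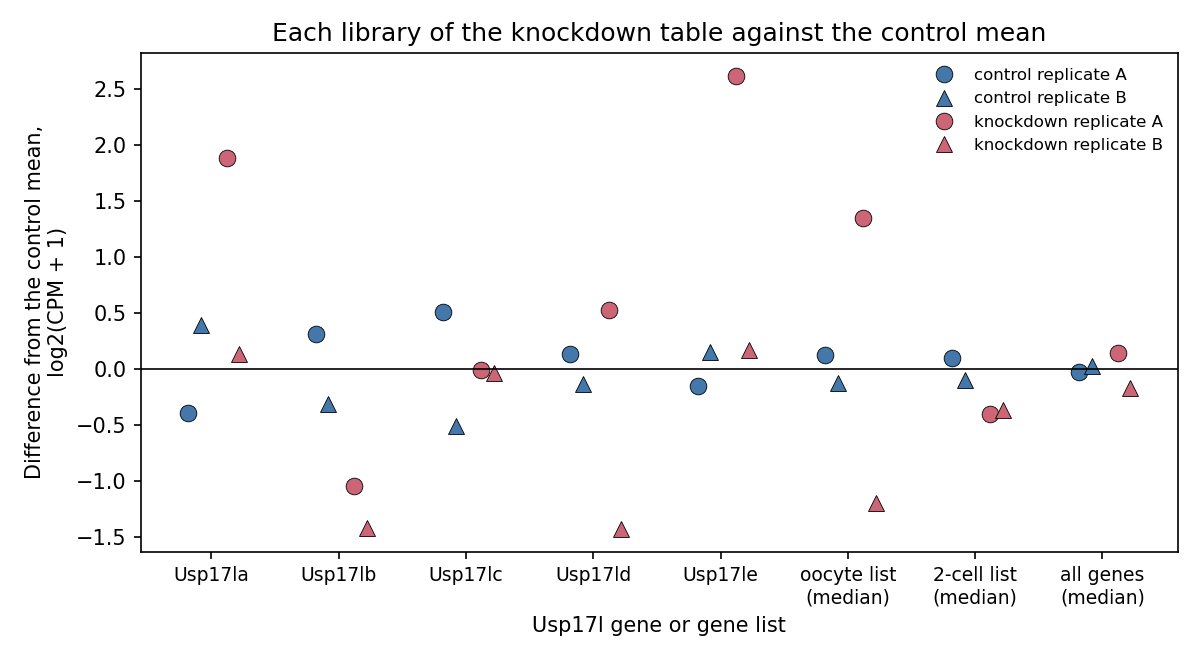
Difference of each library from the control mean on the log2(CPM + 1) scale, for the 5 Usp17l genes and for the medians of the oocyte list, the 2-cell list and all genes tested; controls are blue, knockdown red, replicate A circles and B triangles. Usp17la (1.89) and Usp17le (2.62) are high in knockdown replicate A, as is the oocyte list (1.35), while Usp17lb is low in both knockdown libraries (-1.04 and -1.42).

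Other deubiquitinases were taken from fixed lists. Of 51 other genes named Usp with a number, or Uspl1, 49 were tested between knockdown and control embryos. None passed in limma, 36 were lower in knockdown embryos, against 48.7% of all genes, and the median log2 difference was -0.13. In 19 of the 49 both knockdown libraries lay below both controls and in 4 above, against 18.4% and 18.1% of all genes. The 4 of these genes with the highest mean CPM in controls were Usp16, which acts on ubiquitinated histone H2A, Usp15, Usp7, known for its action on Mdm2 and p53, and Usp9x. Their log2 differences were -0.07, -0.29, -0.23 and -0.68, with adjusted p of 0.859 to 0.991 in limma. Of 31 tested genes of the other deubiquitinase families (the Uch, Otu, Josephin, Jamm and Mindy types), none passed in limma, 10 were lower and the median was 0.23. In 3 of the 31 both knockdown libraries lay below both controls and in 8 above.

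His and IgG beads were compared next, to ask which Usp17l transcripts were recovered with tagged Eif1ad3 above the bead background. In limma 4111 of 11232 genes passed (36.6%), 4008 of them higher in His (35.7%) and 103 lower (0.917%). All 5 Usp17l genes were tested, and Usp17lb, Usp17lc, Usp17ld and Usp17le passed as higher in His. Usp17lc, Usp17ld and Usp17le entered the fit through their His values alone, which fixed their direction, so their differences and p-values are given as a description and neither these calls nor their number support anything. Usp17lb reached 1 CPM in IgG B but not in IgG A, so it too needed a His value to enter. Its call is a description as well. The bead libraries differed in what they detected at all: 12574 and 12217 genes had no read in IgG A and B, against 5146 and 5313 in His A and B. Eif1ad3, the tagged gene, was at 80.3 and 83.6 CPM in His A and B and at 1.35 and 30.8 CPM in IgG A and B. That difference did not pass (log2 difference 3.26, SE 1.66, adjusted p 0.252 in limma).

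Usp17lc had no read in either IgG library and was at 33.4 and 28.0 CPM in His A and B (279 and 222 reads). Usp17ld had no read in either IgG library and was at 29.2 and 26.5 CPM in His A and B (244 and 210 reads). The His replicates of both genes lay close together. They lay above both IgG libraries, as did those of 54.1% of all genes tested. Against a floor of 3 reads in each IgG library, a mean of 0.574 CPM, the His mean was at least 53.5-fold higher for Usp17lc and at least 48.5-fold higher for Usp17ld. Their log2 differences of 4.98 (SE 0.41) and 4.85 (SE 0.39) had an adjusted p of 0.00997 each in limma; with no read in IgG these fitted values depend on the pseudocount, and the p-values describe genes that the filter kept for their His level.

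Usp17le had 0 and 4 reads in IgG A and B (0 and 0.855 CPM) and was at 48.9 and 36.4 CPM in His A and B (409 and 288 reads). Its log2 difference was 4.99 (SE 0.62, adjusted p 0.0126 in limma), a value that also depends on the pseudocount: it was 7.10 with a pseudocount of 0.1 and 3.13 with 5. Usp17lb had 2 and 6 reads in IgG A and B (0.338 and 1.28 CPM) and was at 64.6 CPM in His A and 227 CPM in His B (540 and 1794 reads). Both His libraries of Usp17lb lay above both IgG libraries, as for 54.1% of all genes tested. Its His replicates lay farther apart than those of 92.2% of the genes tested. The log2 difference of Usp17lb was 6.13 (SE 1.02, adjusted p 0.0227 in limma). It was 7.28 with a pseudocount of 0.1 and 4.45 with 5, and the 2 reads in IgG A lie under the floor of 3.

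The 4 calls depend on the test. With edgeR on the recovered reads, which called 0 of 11232 genes (0%) with 4592 at an unadjusted p under 0.05, the adjusted p was 0.0547 for Usp17lb, Usp17lc and Usp17ld and 0.104 for Usp17le. With quantile normalization, which also left no gene past the threshold (2339 at an unadjusted p under 0.05), it was 0.174, 0.192, 0.191 and 0.253 in limma, in the order Usp17lb, Usp17lc, Usp17ld and Usp17le. DESeq2, which called 42.4% of all genes higher in His and 6.65% lower, called all 4 higher, with adjusted p of 1.7e-07 to 1.4e-05. Without His A or His B Usp17lb did not pass in limma (adjusted p 1.00 in each case), in fits that called 6 genes. The other 3 genes were then not kept by the filter.

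Usp17la was the exception among the 5 genes. It was at 121 and 130 CPM in His A and B (1015 and 1033 reads), the closest His replicates in the family on the log2 scale, and it had 2 reads in IgG A but 1972 reads in IgG B (0.338 and 421 CPM). The His libraries of Usp17la therefore lay between the IgG libraries. Its log2 difference was 2.42 with an SE of 3.29 and an adjusted p of 0.680 in limma. Without IgG B it was 6.57 (adjusted p 7.6e-05), and without IgG A it was -1.74 (0.00114), so the direction rested on which IgG library was kept. It also rested on the tool and scale with all libraries kept: the difference was -0.65 with edgeR (adjusted p 0.907) and -0.85 with DESeq2 (0.808), and the ratio of the mean CPM was 0.597. The limma fits without IgG B and without IgG A called 70% and 69.1% of the genes tested. In IgG B 99.5% of the family's 1982 reads came from Usp17la, and in IgG A the family had 4 reads in all.

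**Figure D4:**
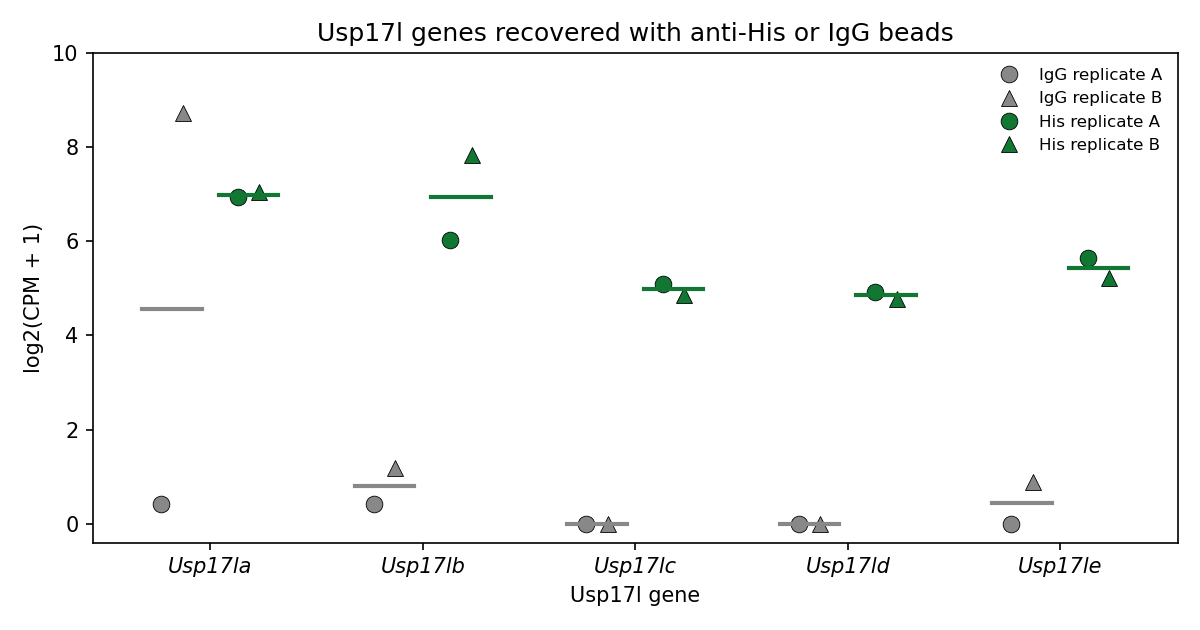
Levels on the log2(CPM + 1) scale of the 5 Usp17l genes in IgG (grey) and His (green) libraries, replicate A as circles and B as triangles, with the mean of the log2 values as a bar. The His points lie above the IgG points for 4 genes, an arrangement found for 54.1% of all genes tested. For Usp17la IgG replicate B (421 CPM) lies above both His libraries.

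Such unequal IgG replicates were common across genes. IgG B held 2226 genes at no less than 100 CPM, of which 570 (25.6%) had at most 3 reads in IgG A, and IgG A held 1907, of which 454 (23.8%) had at most 3 reads in IgG B. In the His libraries the same counts were 0 of 1832 and 0 of 1857. Genes with few IgG reads were common too. Of 3513 genes with a His mean between those of the lowest and the highest Usp17l gene, 504 (14.3%) had no read in either IgG library, as Usp17lc and Usp17ld had, and 919 (26.2%) had at most 8 reads over both.

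The summed family was at 297 and 448 CPM in His A and B, 0.675 CPM in IgG A and 424 CPM in IgG B. The groups overlapped, and the difference of the sum on log2(CPM) with no pseudocount was 4.43 (two-sided exact permutation p = 0.667). IgG A, with its 4 reads, decided this value: without that library it was -0.22, and without IgG B 9.08. The ratio of the mean CPM was 1.76. Without Usp17la the sum was at 176 and 318 CPM in His and at 0.338 and 2.14 CPM in IgG, given as a description with no test, since Usp17la was left out after its values were seen and 3 of the other 4 genes have at most 4 IgG reads. No fold is given for it, since IgG A then rests on 2 reads, under the floor of 3. Both His libraries lay above both IgG libraries for 54.1% of all genes tested and below both for 9.06%.

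Among the 44 other Usp genes tested between His and IgG, 10 rose in His and none fell, with a median log2 difference of 1.66 against 2.01 for all genes. Of 28 genes of the other deubiquitinase families, 8 rose and none fell, with a median of 2.10. The share of all genes called higher was 35.7%, and neither count exceeded it. The 2-cell list had 9 of 23 genes higher and none lower, a share near that background, with a median of 2.46. Each of these lists holds genes that entered the fit only with their His values, as many of all genes tested did. The counts are therefore a description and support nothing about the lists. In the 2-cell list Zfp352 entered the fit through its His values alone. It was at 0 and 0.427 CPM in IgG A and B and at 16.5 and 36.5 CPM in the His libraries. Obox6 resembled Usp17la in its IgG values, at 0 CPM in IgG A and 108 CPM in IgG B, while His A and B gave 108 and 122 CPM. Its log2 difference of 3.47 did not pass (adjusted p 0.458 in limma). Markers of other cells also had unequal levels here: the later embryo list (8 genes listed) summed to 168 to 185 CPM in His against 1.69 to 3.63 CPM in IgG, and the blood list (2 genes listed) to 55.7 to 70.2 CPM in His against 0 CPM in IgG. The oocyte list summed to 12617 and 12748 CPM in His A and B against 4560 and 4801 CPM in IgG, and the cumulus and granulosa cell list (8 genes listed) to 49.5 and 42.6 CPM against 6.92 and 0 CPM. Those of the later embryo and blood lists that were tested entered the fit through their His values, so no count of calls is given for them. Their part in the family's values was not tested.

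The 5 genes most like the family were named by the Pearson correlation of log2(CPM + 1) with the summed Usp17l level, each centred within its own table, over all 8 libraries and 7259 genes at a mean of 10 CPM or more in controls. They were Gm12463, a predicted gene (0.998), Pan2, a subunit of a poly(A)-shortening enzyme (0.996), Ubn1, a partner of the Hira histone chaperone (0.996), Obox6 (0.995) and Brf2, a factor of RNA polymerase III (0.995). The 4 immunoprecipitation libraries share 1 feature: all 5 genes were lowest in IgG A there, as the summed family was, at 0 to 9.45 CPM. In IgG B these genes were at 67.5 to 249 CPM, where Usp17la held 99.5% of the summed family and the other 4 members were at 0 to 1.28 CPM, so in the bead libraries the likeness is to Usp17la and not to the other members. Within the 4 libraries of the knockdown experiment the same 5 correlations ran from 0.879 to 0.991. Gm12463 was at 110 and 82.3 CPM in controls A and B and at 55.3 and 35.5 CPM in knockdown A and B, in the same order of libraries as the summed family. In the immunoprecipitation experiment Gm12463 was at 53.8 and 71.5 CPM in His A and B, at 0.169 CPM in IgG A and at 67.5 CPM in IgG B.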

How the data were processed

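The authors deposited CPM tables, in which each gene's reads are scaled to a common library total. Per the submitters' processing notes, Trim Galore 0.6.7, FastQC, HISAT2 2.2.1, featureCounts 2.0.1, edgeR and the build GRCm39 were used; the treatment of reads that match several copies, the strand setting and the gene filter are not given in the sources used here. Per the labels' protocols, libraries were made by Smart-seq2 and Nextera XT and read as 150 bp pairs; they carry no molecular identifiers, so floors cover counting error only. All CPM values (100%) were whole multiples (within 0.01 of a read) of the smallest value, which gave back the reads and totals; 3 reads equal 0.108 to 0.165 CPM for knockdown and control libraries and 0.359 to 0.641 CPM for bead libraries. Of 12 samples 8 were used; 4 value columns whose names do not decide between input and total RNA were not used, so 3 of 5 planned comparisons were not run. Tables were tested separately.

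Genes at 1 CPM or more in at least 2 libraries compared were tested on log2(CPM + 1), a scale that understates the change of low genes, with limma 3.58.1 (trend, two-sided; R 4.3.3), Benjamini-Hochberg adjusted over all genes tested, threshold 0.05. edgeR 4.0.16 and DESeq2 1.42.0 on recovered reads were alternatives, with other pseudocounts, filters, scalings, a replicate block and each library left out. The fits were tested on simulated data. Named genes are the members, Eif1ad3, up to 4 genes of each list by highest mean CPM in controls, defining markers, and the 5 genes most like the family; H1f8 and the likeness of Usp17la to Usp17le were picked after their values were seen. Members and lists were chosen with earlier results of these data known. Members matched RefSeq (GRCm38.p6) by symbol, 5 of 5 as genes and 4 with a promoter.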

Additional observations from a re-analysis of the deposited data

How the results depend on the processing

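Of the 13 alternatives per comparison, 9 changed a setting and the others left out 1 library, where a lone library was assumed to vary like the other group. Between knockdown and control embryos the number of genes called moved from 0 to 2 with the replicate block and 15 with DESeq2, and lay between 0 and 1894 with 1 library left out (1894 without knockdown A, 414 without knockdown B). Usp17lb kept its direction in all 13, from -1.54 to -0.92. Usp17la and Usp17le kept theirs too, from 0.13 to 1.89 and from 0.17 to 2.62. Usp17lc reversed to 0.49 without control A (left-out range -0.53 to 0.49) and Usp17ld to 0.53 without knockdown B (-1.43 to 0.53). The sum, recomputed with TMM and with each library left out, ran from -1.36 to -0.75.

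Between His and IgG the number called moved from 4111 to 2356 with the filter at a 5 CPM mean, to 0 with quantile normalization and to 0 with edgeR (smallest adjusted p 0.140 and 0.0547), and lay between 6 and 7679 with 1 library left out (6 without either His library, 7599 without IgG A, 7679 without IgG B). Usp17la reversed to -0.65 with edgeR, -0.85 with DESeq2 and -1.74 without IgG A (left-out range -1.74 to 6.57); the sum reversed to -0.22 without IgG A and was 9.08 without IgG B. The filter fixes the direction of Usp17lc, Usp17ld and Usp17le, and Usp17lb also needed a His value to enter the main fit. These 4 genes were higher in His wherever they were tested, a direction given as a description. Their log2 differences moved widely: Usp17lb from 4.38 (quantile) to 7.47 (edgeR), Usp17lc from 2.25 to 10.66 and Usp17ld from 1.93 to 10.52 in the same settings, and Usp17le from 2.74 (quantile) to 7.10 (pseudocount 0.1). The calls lost with edgeR had larger differences than in limma. The all-gene median was 2.01, but -0.08 after quantile normalization, 1.56 with edgeR and 1.30 with DESeq2. Left-out libraries mean fewer samples; for the other settings the cause was not tested.

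The replicate letters do not state a shared batch. Same-letter deviations correlated at 0.15 and -0.01 in the 2 comparisons, and the replicate block changed the call of no Usp17l gene. The 2 libraries per group limit all results, and IgG depth limits the lowest levels.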

Other observations

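Proteins named in the literature as substrates of the human USP17 enzymes were followed as transcripts, from a list of 11 symbols of which 10 were listed and tested in the knockdown experiment. None passed between knockdown and control embryos, 6 were lower in knockdown embryos, and the median log2 difference was -0.06. Gmnn, which encodes the replication inhibitor geminin, was at 1107 and 1013 CPM in controls A and B and at 849 and 1120 CPM in knockdown A and B. Ccna2, which encodes cyclin A2, was at 792 and 786 CPM in controls and at 584 and 587 CPM in knockdown A and B. Both knockdown libraries of Ccna2 thus lay below both controls (log2 difference -0.43, SE 0.29, adjusted p 0.865 in limma). Of the 10 genes tested, 2 had this arrangement and 1 the reverse, against 18.4% and 18.1% of all genes tested. Between His and IgG 3 of 9 tested genes of this list rose in His, near the 35.7% of all genes called higher, with a median of 1.94 against 2.01 for all genes. Some of these genes entered the fit only with their His values, so this count is a description.

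Genes that encode ubiquitin or its activating enzymes had a median log2 difference of -0.40 over 6 tested genes between knockdown and control embryos, and none passed. Ubb, a gene for several ubiquitin units in a row, was at 2396 and 2369 CPM in controls A and B, 2459 CPM in knockdown A and 979 CPM in knockdown B. Between His and IgG 1 of 5 tested genes of this list rose in His, against 35.7% of all genes. It was Ubb, from 1756 and 1933 CPM in IgG A and B to 2836 and 2579 CPM in His A and B (log2 difference 0.55, SE 0.08, adjusted p 0.0182 in limma), below the median of 2.01 over all genes.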
